A study of Cinachyrella cavernosa with 3 samples.

Results

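This account sets regenerating tissue of the marine demosponge Cinachyrella cf. cavernosa against tissue of the same species taken before any wound was cut. Its members are the 908 coding sequences that were listed in both abundance tables and had at least 20 reads in one of them, of 963 listed in both at any count and 3229 listed anywhere in the series. The group before the wound is the control. All sponges had first been kept for 2 weeks in aquaria. The group during regeneration comes from sponges with wounds that imitated fish bites and took in about 10% of the body volume, per the labels' protocols. Sponges of the experiment were held in groups of 3. The sources used here do not give the hour or day of sampling, the number of sponges in a library, or whether the libraries share sponges. The library taken after regeneration entered the series total of 3229, the scaling and the search for identical copies. Beyond that it entered only the values of the named sequences and the closing comparison with the other pairs of stages.

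Sponges have no true organs, and a wound in a demosponge is closed by flat covering cells, the pinacocytes, while amoeboid stem-like cells, the archaeocytes, move to the site. In several demosponges the flagellated choanocytes also leave their chambers and change form. The body is then rebuilt from a mass of such cells, so tissue taken during regeneration can hold a different mixture of cell types from intact tissue. In a bulk library fewer cells of one type and less RNA per cell cannot be told apart. The deposited identifiers are not paired with gene names, and no sequence was used here, so no member could be given a gene name, a function or a genome position, and no tissue or cell type marker could be looked up. No sequence is printed for the same reason.

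Each stage had 1 library. The table before the wound listed 1928 coding sequences with 773142 reads, and the table during regeneration listed 1769 with 1062098 reads. Every count was even, so reads appear to be counted in pairs, and all fold intervals were computed on pairs. The members held 87.0% of the listed reads before the wound and 94.9% during regeneration. Counts were scaled to counts per 1000000 (CPM) with TMM, which sets the typical coding sequence near equal. A fold is the difference in log2(CPM + 1), during minus before; the added 1 makes folds of low sequences smaller. With 1 library on each side no difference was tested: every value compares these libraries, and stage and animal cannot be told apart. Every fold interval is an exact 95% interval that covers counting error only. Intervals of shares are exact 95% binomial intervals over numbers of coding sequences, which are not independent. They do not measure spread between sponges.

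With the typical sequence set near equal, the folds formed a broad and nearly symmetric distribution. The quartiles were -0.93 and 1.06 on the log2 scale, around a median of -0.03. The 5th percentile lay at -2.46 and the 95th at 2.45, a 5.49-fold lower and a 5.47-fold higher level. In all, 456 members (50.2%) were within 2-fold. A further 151 were 2- to 4-fold higher and 127 were 2- to 4-fold lower. At least 4-fold higher were 89 members, 9.8% of those compared, and at least 4-fold lower were 85, or 9.36%. This balance depends on centring the typical sequence: median-of-ratios factors gave 82 higher and 90 lower, while library totals, which leave the median at -0.69, gave 28 and 157, and the deposited FPKM, uncentred, gave 29 and 183. The steps beyond 8-fold held 18 higher and 21 lower members. Under 150 CPM lay 59 of the 89 higher members (66.3%) and 50 of the 85 lower ones (58.8%), against 56.5% of all members. The median higher member had 40 reads before the wound and 226 during regeneration, and the median lower member had 244 and 36. Counting intervals lay wholly beyond 2-fold for 79 of the 89 and 78 of the 85, and wholly beyond 4-fold for 38 and 42. The same counts picked these members, which in part fixes where their intervals lie. For 27 of the 89 and 27 of the 85, 1 library had under 20 reads. With 20 reads required in both libraries, 62 were at least 4-fold higher and 58 lower, of 756. At the filter of 20 reads, the 33 members whose larger count was 20 to 22 reads had folds between -1.40 and 1.57, and the 28 coding sequences just outside it, with 16 to 18 reads, had folds between -0.73 and 1.29.

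On this centred scale the higher and lower members were similar in number, which library totals did not give, and very unequal in their share of reads. The 89 higher members took 7.27% of reads before the wound and 36.4% during regeneration. The 85 lower members took 6.71% before and 0.653% during. Among the higher ones, 3 sequences carried most of these reads, with 6.49% of reads before and 33.2% during regeneration. The other 86 together took 0.781% and 3.18%. The lower list had no such leaders among single sequences: its 3 most abundant took 0.803% of reads before the wound, and the other 82 took 5.90%. Of these 85 members, 21 fell into 7 sets of equal length and identical counts. The largest set had 7 members with 1484 reads each before the wound. Such repeated values are part of the 6.71%, and the share with each set counted once was not computed. The 456 members within 2-fold held 49.9% of reads before and 33.3% during regeneration.

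**Figure D1:**
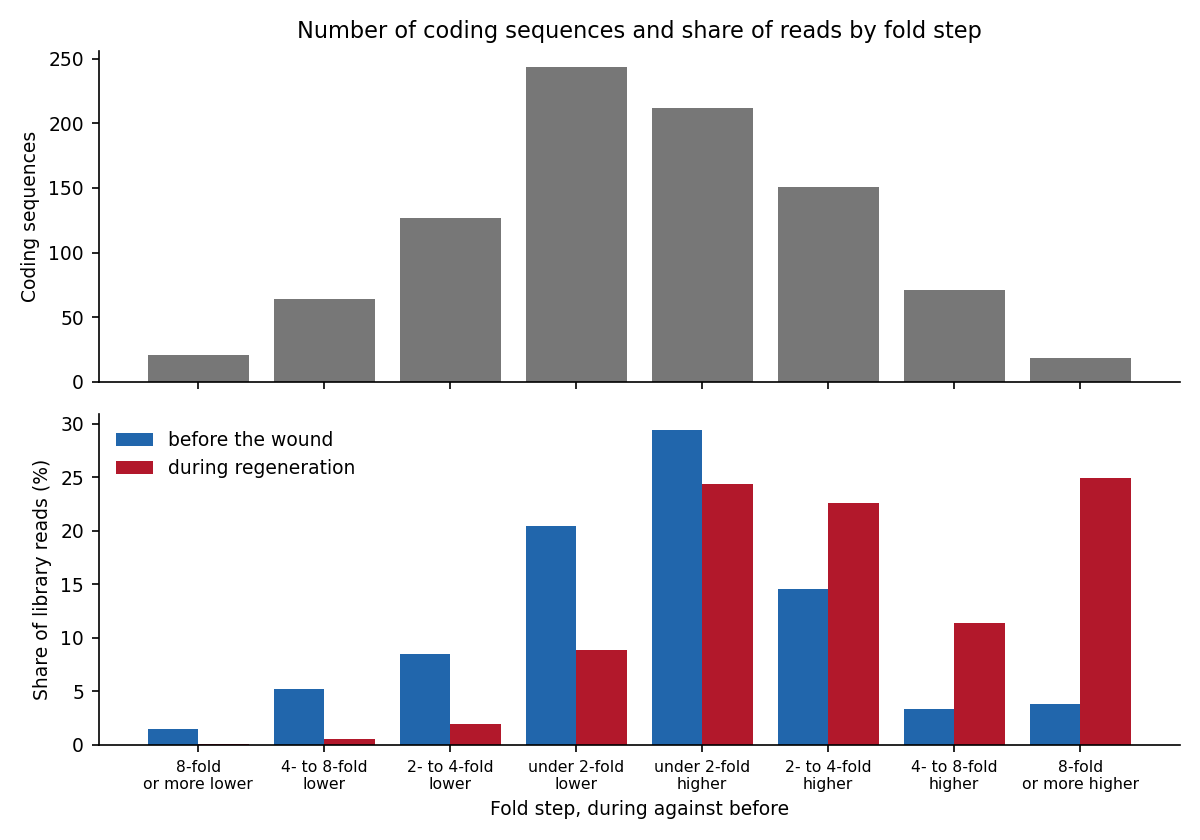
Number of members (upper bars) and share of each library's reads in percent (lower bars, blue before the wound, red during regeneration) by fold step, from lower on the left to higher on the right. With TMM, which centres the typical sequence, the outer steps held 21 lower and 18 higher members (library totals gave 28 at least 4-fold higher and 157 lower in all), and the step at least 8-fold higher held 3.87% of reads before and 25.0% during regeneration.

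The most abundant member at least 4-fold higher was CDS_41997_Unigene_65739, which is 300 bases long, room for 100 codons. It had 25226 reads in unwounded tissue, 204380 during regeneration and 44986 afterwards. The regenerating library was the highest of the 3, and the log2 fold was 3.24 (3.21 to 3.26), or 2.56 with library totals and 2.42 with the deposited FPKM. The next was CDS_47465_Unigene_74294, of 363 bases, with 20754 reads in unwounded tissue, 94460 during regeneration and 28894 afterwards. Its log2 fold was 2.40 (2.37 to 2.43), or 5.29-fold, and 1.73 with library totals and 1.76 with the deposited FPKM, both under 4-fold. After scaling it stood at 22251 CPM in unwounded tissue, 117728 CPM during regeneration and 27275 CPM afterwards, so the regenerating library again stood highest. The pair belongs to the 3 leaders of the higher list.

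The 2 most abundant lower members without an identical copy were far less abundant. CDS_21594_Unigene_33566 (330 bases) had 2104 reads in unwounded tissue, 328 during regeneration and 718 afterwards, and its log2 fold was -2.46 (-2.71 to -2.23). CDS_47627_Unigene_74551 (423 bases) had 2088, 244 and 1210 reads in the same order and a log2 fold of -2.88 (-3.16 to -2.61). In both, the library before the wound was the highest and the one during regeneration the lowest. With library totals their folds were larger, at -3.14 and -3.55, and with the deposited FPKM they were -3.34 and -3.63. These ranked 71 and 87 in mean abundance among the members, against ranks 1 and 5 for the higher pair.

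Some of the most abundant members hardly differed. CDS_60465_Unigene_94520 (327 bases) had 41994 reads in unwounded tissue, 37692 during regeneration and 47638 afterwards, for a log2 fold of 0.06 (0.03 to 0.09). CDS_45008_Unigene_70396 (327 bases) had 31732, 31990 and 51134 reads, with a log2 fold during against before of 0.23 (0.20 to 0.26). CDS_61978_Unigene_96848 (564 bases) had 7036, 5668 and 6676 reads, a log2 fold of -0.09 (-0.17 to -0.02). Near-equal levels in these 3 depend on centring the typical sequence. With median-of-ratios factors they lay at 0.0053, 0.17 and -0.15. With library totals alone the median member lay at -0.69, and these 3 lay at -0.61, -0.45 and -0.77.

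Members were then divided by abundance, taken as the geometric mean of both libraries so that neither sets the class. Among members with at least 20 reads in 1 or both libraries, the spread of folds hardly narrowed with abundance while the counting error shrank. Under 50 CPM (228 members, a median of 13 pairs in each library) the SD of the log2 folds was 1.47, and counting alone would give 0.62. From 50 to 150 CPM (285 members) these were 1.6 and 0.37, and from 150 to 500 CPM (238 members) 1.5 and 0.21. From 500 to 1500 CPM (108 members) the SD was 1.39 against 0.12. At 1500 CPM and above (49 members, medians of 1440 and 1398 pairs) it was 1.29 against 0.06. The ratio of spread to counting error thus went from 2.36 in the lowest class to 22.6 in the highest. Only sequences listed in both libraries enter these SDs. Of sequences with at least 20 reads and under 50 CPM before the wound, 32.7% were listed during regeneration. At 1500 CPM and above 97.1% were. The reverse look-up gave 40.0% and 96.2%. Folds of unlisted sequences are not known, so the low classes leave out more sequences and the SDs are not fully comparable. The share of members within 2-fold was 46.1%, 48.8%, 52.9%, 52.8% and 59.2% from the lowest class to the highest. The 95% binomial intervals of these shares overlapped, from 39.5 to 52.8% in the lowest class and from 44.2 to 73.0% in the highest. They take members as independent, which identical copies are not. Under 50 CPM the share depends on the filter. With 20 reads in both libraries, which itself limits how far apart low members can lie, 75% of the 88 left were within 2-fold. The share at 1500 CPM and above stayed at 59.2%, so the lowest class then stood above it.

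**Figure D2:**
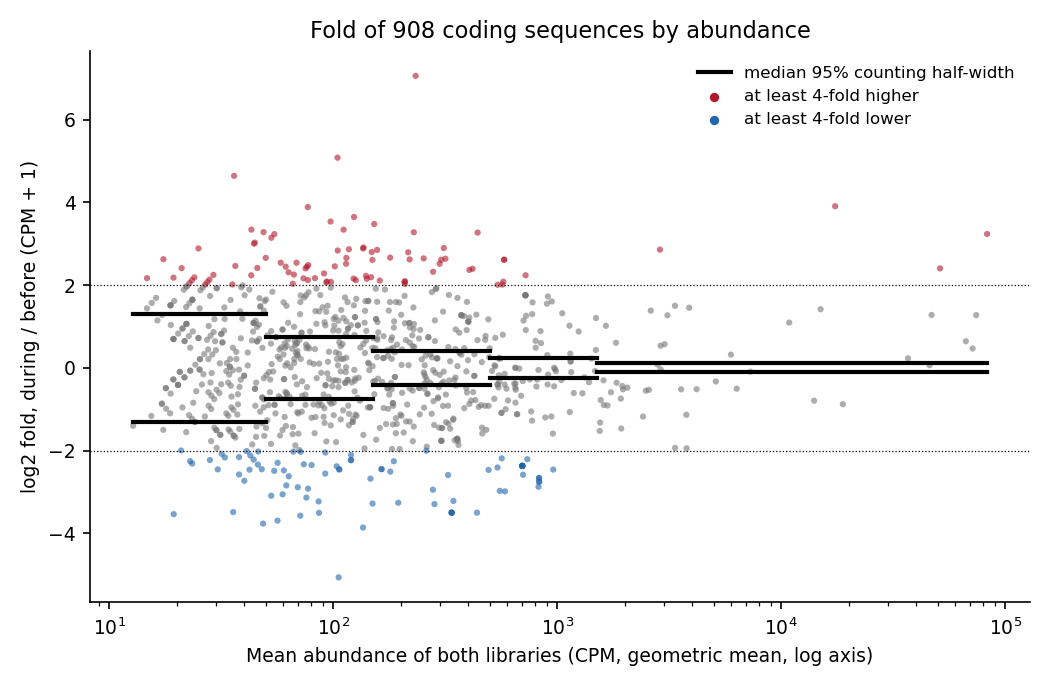
Log2 fold during against before for each of the 908 members (vertical axis) by mean abundance in CPM (horizontal, log axis). Red and blue points are at least 4-fold higher and lower, dotted lines mark 4-fold, and black steps give the median half-width of the 95% counting interval in each class, which runs from 1.31 under 50 CPM to 0.11 at 1500 CPM and above, while the points stay spread.

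What counting can resolve differed strongly between the classes. The median half-width of an interval on the log2 scale was 1.31 under 50 CPM, a factor of 2.48 to either side, and 0.11 at 1500 CPM and above, a factor of 1.08. The interval left out equal levels for 104 of 228 members in the lowest class and for 47 of 49 in the highest. It lay wholly within 2-fold for 0 members under 50 CPM, 41 of 285 from 50 to 150 CPM, 76 of 238, then 50 of 108, and 27 of 49 at the top. A low member near equal levels therefore could not be told from one 2-fold apart at this depth.

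The direction of the larger folds varied between abundance classes. Under 50 CPM 22 members were at least 4-fold higher and 20 lower, and from 50 to 150 CPM the numbers were 37 (13.0%) and 30 (10.5%). From 150 to 500 CPM they were 20 (8.4%) and 16 (6.72%). Over all members the shares were 9.8% and 9.36%. From 500 to 1500 CPM 6 members (5.56%) were higher and 19 (17.6%) lower. At 1500 CPM and above 4 were higher and 0 lower, and the lowest member of that class lay at -1.95, just inside the threshold. That class had 4 higher and 1 lower with median-of-ratios factors, and 4 and 2 with FPKM centred on its median. Scaled by library totals the classes had, from the lowest to the highest, 6 higher and 41 lower, 14 and 47, 5 and 45, 0 and 21, and 3 and 3. Class membership changes with this scaling, with 46 members in place of 49 at the top. With the deposited FPKM as it stands lower members outnumbered higher ones in each class, by 25 to 1 from 500 to 1500 CPM and 5 to 3 at the top. The class medians, from the lowest class to the highest, were 0.09, 0.12, -0.09, -0.26 and -0.30. In the top class this median sits beside an upper quartile of 1.02 and a lower quartile of -0.74.

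Many of the lower members between 500 and 1500 CPM carried the same values as another member. Of the 908 members 92 fell into 39 sets whose sequences were equally long and had the same counts wherever they were listed. Whether these are copies of one transcript, counted once for each, was not tested. In 37 of the 39 sets the members also shared their FPKM values. Among the 19 lower members of this class, 11 belonged to 3 sets. The largest set had 7 members of 528 bases, each with 1484 reads before the wound and 246 during regeneration. Counted once per set, the class had 11 lower (12.2%) and 5 higher (5.56%) of 90 distinct sequences. The shares of all 855 distinct sequences were 8.30% lower and 10.3% higher. Over all members the higher list went from 89 to 88 and the lower list from 85 to 71 when each set counted once; such sets made up 2 of the 89 higher and 21 of the 85 lower members. Sequences that are close but not identical copies were not searched for.

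The class medians depended on the library that set the abundance class. Classed by the level before the wound, members under 50 CPM had a median fold of 0.97, with 54 at least 4-fold higher and 1 lower. Classed by the level during regeneration, members under 50 CPM had a median of -0.68, with 6 higher and 46 lower. From 500 to 1500 CPM the medians were -0.64 and 0.49 in these schemes, and at 1500 CPM and above -0.57 and 0.53. In that top class 3 of 68 were at least 4-fold higher and 17 lower when classed by the level before the wound. Classed by the level during regeneration, 6 of 51 were higher and 0 lower. The slopes of these one-library schemes run in opposite directions over the same members, so the classes above use the mean of both libraries.

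**Figure D3:**
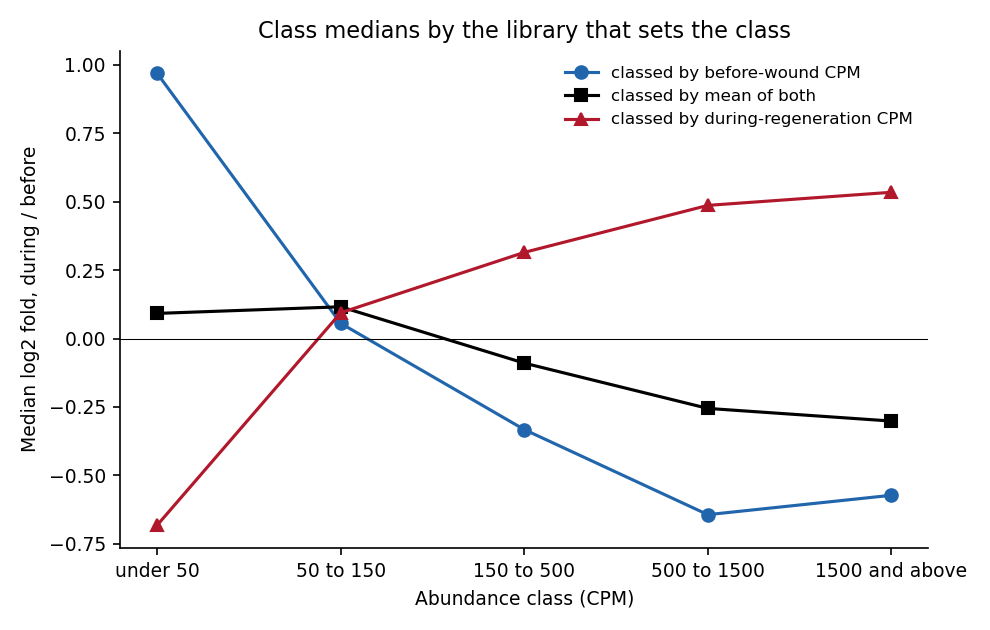
Median log2 fold during against before (vertical axis) in 5 abundance classes (horizontal axis, CPM), with members classed by the library before the wound (blue), by the library during regeneration (red) or by the mean of both (black). The blue line falls from 0.97 to -0.57 and the red line climbs from -0.68 to 0.53 over the same 908 members, while the black line stays between -0.30 and 0.12.

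The members were 288 to 2865 bases long, all of them whole codons, with a median of 387 bases. The limits of a length class include the lower and leave out the upper value. Most members, 489 (53.9%), were 300 to 400 bases long. This class held 60.9% of reads before the wound and 74.5% during regeneration. Single sequences weigh heavily in these shares. CDS_41997_Unigene_65739 alone took 3.26% before and 19.2% during, and CDS_47465_Unigene_74294 took 2.68% and 8.89%. The share of the class without this pair was not computed. The classes from 300 to 1000 bases had similar medians and spreads. Their medians were 0.01 (300 to 400 bases), -0.09 (400 to 600 bases, 268 members) and 0.01 (600 to 1000 bases, 103 members). Their SDs were 1.54, 1.38 and 1.39. At least 4-fold higher were 50 (10.2%), 19 (7.09%) and 11 (10.7%) members, and at least 4-fold lower 48 (9.82%), 26 (9.70%) and 8 (7.77%). These shares lay near the 9.8% and 9.36% of all members. Of the 26 lower members from 400 to 600 bases, 13 belonged to sets of identical copies. Across all 908 members the Spearman correlation of fold with length was -0.01, and that of fold with abundance -0.06. These are descriptions across coding sequences of the same pair of libraries, which are not independent.

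The longest and the shortest class are small. Of the 38 members of at least 1000 bases, 18 were higher by 2-fold or more and 8 lower by as much, against 26.4% and 23.3% of all members. The class had a median fold of 0.47 and 12 members (31.6%, 17.5 to 48.7) within 2-fold. A set of 5 identical copies of 1107 bases, with 366 reads before and 1064 during regeneration, is part of it. With each set counted once the share within 2-fold was 36.4%, and the median lay 0.35 above that of all members, in place of 0.49. The class median was 0.42 among its 10 members under the median abundance and 0.83 among the 28 at or above it. The median did not rise evenly with abundance. It was 0.48 for 11 members from 50 to 150 CPM, -0.49 for 15 from 150 to 500 CPM and 1.65 for 12 from 500 to 1500 CPM. The 5 identical copies are among those 12, as are 2 identical copies of 1080 bases with a fold of -1.09. The 10 members under 300 bases had a median of 0.44, with 3 at least 4-fold higher and 0 lower. The latter class includes the highest fold of the comparison, 7.06.

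**Figure D4:**
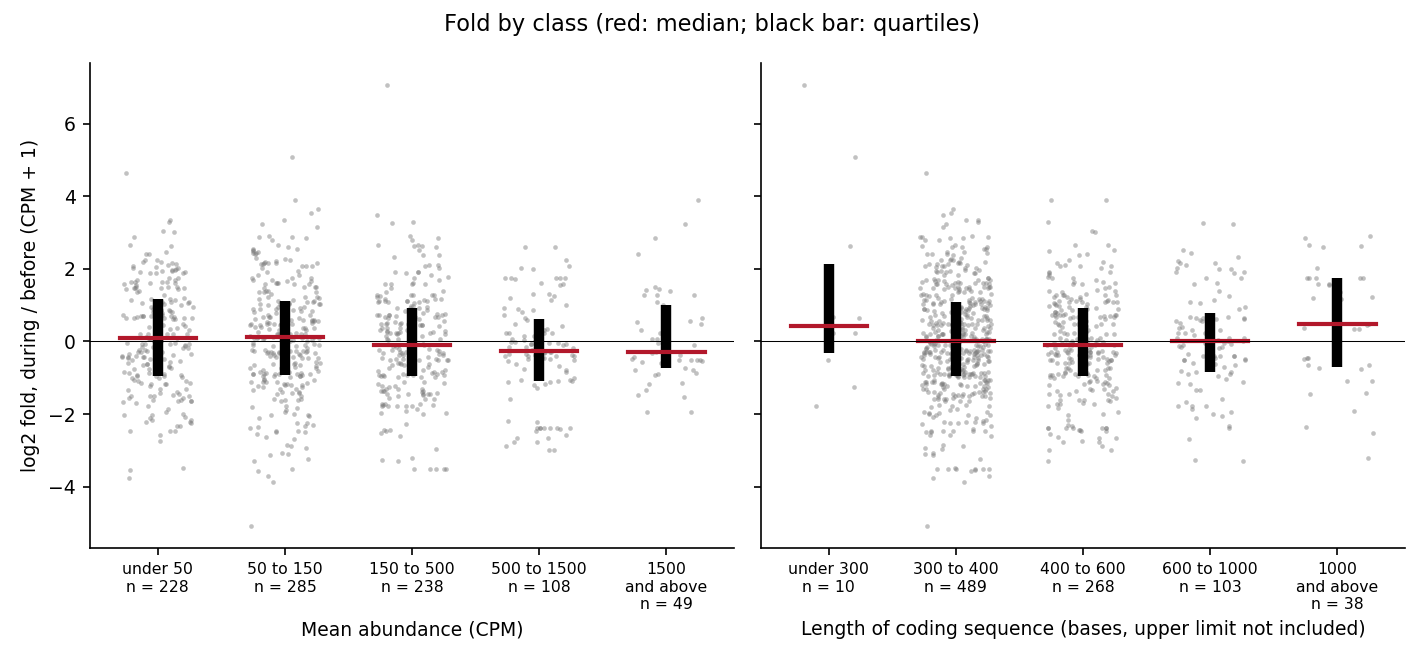
Log2 fold during against before for each member (grey points) by abundance class in CPM (left) and by length class in bases (right), with the class median in red and the quartiles as a black bar. The quartile bars cover similar ranges in the abundance classes, and the length class of at least 1000 bases, with 38 members, has a median of 0.47.

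Longer coding sequences were less often listed in both libraries, so they entered the comparison less often. Of those with at least 20 reads before the wound, 65.0% (61.3 to 68.6) of the 675 of 300 to 400 bases were also listed during regeneration, against 52.7% (48.1 to 57.3) of 476 from 400 to 600 bases and 36.0% (30.3 to 41.9) of 278 from 600 to 1000 bases. The reverse look-up gave 71.0% of 618, 62.1% of 388 and 44.3% of 228. At 1000 bases and above the shares were 40% of 95 and 33.6% of 113. Long and short sequences of similar counts differed in the same way. At 150 CPM and above, 195 of 234 sequences under 400 bases were listed during regeneration (83.3%, 77.9 to 87.9), against 70 of 135 of at least 600 bases (51.9%, 43.1 to 60.5). The median counts of these groups before the wound were 308 and 326 reads. The reverse look-up gave 90.6% of 223 and 53.7% of 134, at medians of 274 and 272 reads. Abundance mattered as well: 32.7% of the sequences under 50 CPM before the wound were listed during regeneration, and 97.1% of those at 1500 CPM and above. The sources used here do not say how coding sequences were chosen for a table, and the part of that choice in these shares was not tested.

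The deposited FPKM values, which are scaled for length and library size by the authors, gave the same picture for most short members and a less similar one for long members. FPKM folds were centred on their median of -0.73, and 20 members listed at an FPKM of 0 in either library were left out. On the log2 scale the centred FPKM fold was within 0.32 of the count fold for 760 of 888 members (85.6%). This share was 89.8% from 300 to 400 bases, 85.3% from 400 to 600 bases, 74.5% from 600 to 1000 bases and 58.3% at 1000 bases and above (21 of 36). These 36 include a set of 5 identical copies, at 1.75 on counts and 1.19 on centred FPKM. A set of 2 copies, at -1.09 on counts, lay at -4.54 and 1.36 on centred FPKM. All of these copies count among the members that were not this close. The share with each set counted once was not computed. By abundance it was 91.6% under 50 CPM, 85.5%, 81.8% and 79.2% in the next classes and 89.6% at 1500 CPM and above. The measures were more than 2-fold apart for 45 members, and 1 member was at least 2-fold higher on one measure and at least 2-fold lower on the other. On centred FPKM 82 members (9.23%) were at least 4-fold higher and 95 (10.7%) lower. Of these, 74 and 78 were also called on counts. Among members in sets of identical copies the share this close was 73.9%, against 86.9% of the others.

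**Figure D5:**
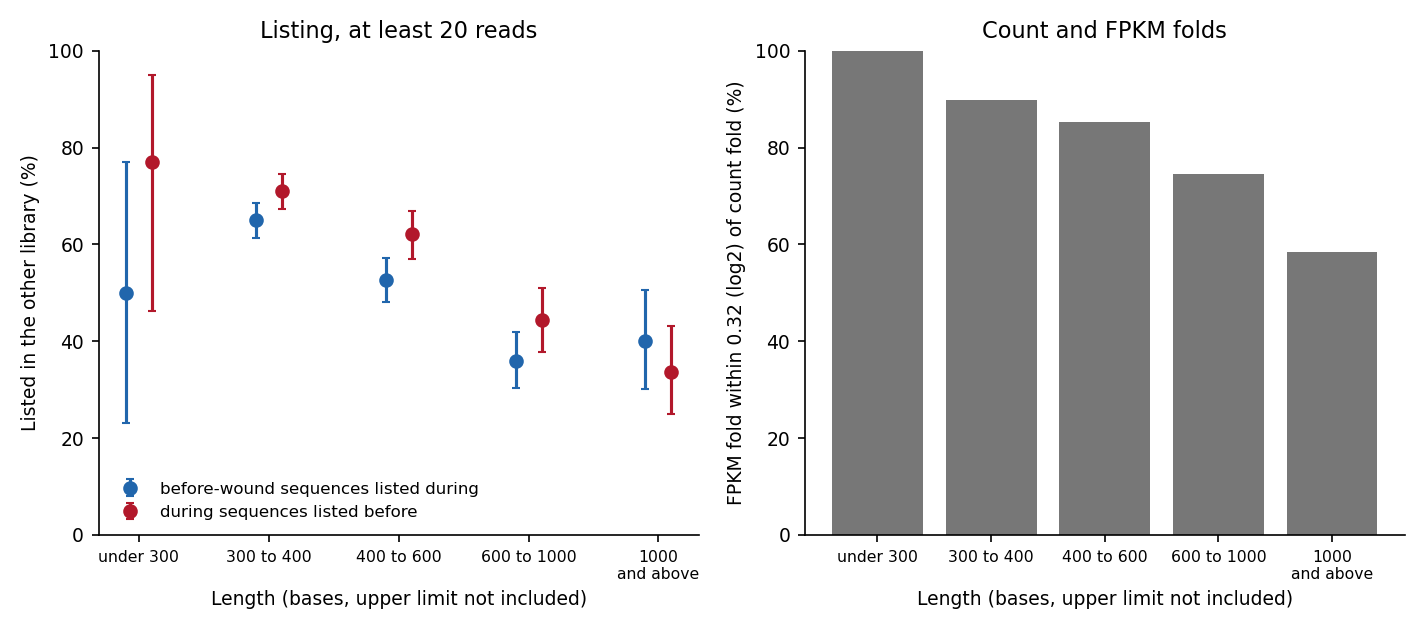
Left, percent of sequences found with 20 or more reads in one library that the other library listed too, by length class in bases (blue, before looked up during; red, during looked up before; bars, exact 95% binomial intervals). Right, percent of members whose centred FPKM fold was within 0.32 of the count fold on the log2 scale, by length class. The percentage falls from 89.8% at 300 to 400 bases to 58.3% at 1000 bases and above, where identical copies count several times.

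Set beside the other pairs of stages, the folds during against before were the most spread. All 3 pairs share libraries, so these are values side by side, with no test of the difference. Each pair has its own set of coding sequences, listed in both of its tables. The pairs were not compared over the same sequences. The SD of the log2 folds was 1.51 for the 908 members. It was 1.12 for the 1230 coding sequences compared between the healed and the unwounded library, and 1.2 for the 1085 compared between the healed and the regenerating one. In the class at 1500 CPM and above, where counting error is least, the SDs were, in this order, 1.29, 0.61 and 0.98, and 59.2%, 93.0% and 77.6% of the sequences were within 2-fold. Under 50 CPM the shares were closer, at 46.1%, 58.1% and 57.1%. For coding sequences of at least 1000 bases the medians were 0.47, 0.07 and -0.61 in the same order, over 38, 61 and 59 sequences.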

How the data were processed

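The authors deposited 1 table per library with a read count, a length (other values, in bases) and an FPKM for each listed coding sequence, per the file headers. RNA was extracted with TRIzol and sequenced as paired ends from a stranded mRNA kit, per the labels' protocols. The submitters' processing notes name FastQC, Trimmomatic and RSEM and give no versions; the sources used here do not give the assembler, the aligner or the listing rule. The deposited counts were used as they stand. TMM factors (edgeR 4.0.16, R 4.3.3) were computed on the 887 coding sequences common to the 3 tables and were 1.21 before the wound and 0.755 during regeneration. Median-of-ratios factors (DESeq2 1.42.0) were an alternative. Fold intervals are exact conditional binomial intervals on read pairs, on the CPM ratio without the pseudocount of 1, and shares carry Clopper-Pearson intervals. The fold intervals cover counting error only, and reads counted for several copies make them too narrow. The intervals of shares take coding sequences as independent, which identical copies are not. The spread that counting alone would give was computed from the pair counts. Deposited FPKM values were compared on log2(FPKM + 1). The fold and interval functions were tested on simulated data. No test between conditions was run. Coding sequences missing from a table were not read as 0. The members and classes were chosen with earlier results of these data known. Named were, by rule, the 2 higher and 2 lower members of greatest mean abundance that were at least 4-fold apart on counts and centred FPKM and had no identical copy, and the 3 most abundant within 0.32 of equal on both log2 scales; the sequences described without an identifier were chosen after their values were seen. Alternatives covered scaling, FPKM, pseudocount, filters, copies and class limits.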

Additional observations from a re-analysis of the deposited data

How the results depend on the processing

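No paired analysis was possible because each stage has 1 library, and for the same reason no library could be left out. Depth limits low coding sequences most. Against 89 higher and 85 lower members, library totals gave 28 and 157 and deposited FPKM 29 and 183; both move the median of all members, to -0.69 and -0.73. The balance of higher and lower therefore depends on centring: median-of-ratios factors gave 82 and 90, and centred FPKM 82 and 95. A 2-fold threshold gave 240 and 212 and an 8-fold one 18 and 21, as the thresholds require. The other settings stayed within 1.5 times of both counts.

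The share within 2-fold, 50.2% in all, was 44.9% with library totals, 44.1% with FPKM, 45.7% with a filter of 100 reads in one library and 55.2% with 20 reads in both. In the abundance classes, the share under 50 CPM was 53.1% with a pseudocount of 5, 54.1% without a filter, 75% with 20 reads in both and 0.0% in the 9 members that a filter of 100 reads leaves there, whose median lay 3.10 above that of all members; such filters fix these values. From 50 to 150 CPM the filter of 100 reads gave 30.8%. From 150 to 500 CPM library totals gave 44.9% and FPKM 43.7%. From 500 to 1500 CPM library totals gave 40.9%, and at 1500 CPM and above FPKM gave 43.8%.

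In the length classes, FPKM gave 42.2% (300 to 400 bases), 46.0% (400 to 600) and 50% (1000 and above). Library totals gave 41.7% (600 to 1000). A filter of 100 reads gave 45.8% (600 to 1000), and 20 reads in both gave 55.8% (300 to 400). Classes of equal number, which have other limits, gave 59.7% in the third and 52.5% in the longest, and members under the median abundance gave 50% at 1000 bases and above.

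Class medians are given minus the median of all members. At 1500 CPM and above this was -0.28, and -0.050 with library totals, -0.042 with TMM over the before and during lists, -0.13 with FPKM, centred or not, -0.15 where FPKM and count folds were alike, -0.55 classed by the library before the wound and 0.56 classed by the one during regeneration. From 500 to 1500 CPM it was -0.23, and -0.62 and 0.51 in these last schemes. At 1000 bases and above it was 0.49, 1.28 with a filter of 100 reads and -0.015 in the longest class of equal number. Under 300 bases it was 0.46, and 1.52 among members under the median abundance. The cause was not tested where a construction does not show it. The 4 named higher and lower sequences kept their direction under all 7 settings of scaling, measure and pseudocount. CDS_47465_Unigene_74294 lay at 1.73 with library totals and 1.76 with deposited FPKM, under 4-fold. Of the near-equal sequences, CDS_60465_Unigene_94520 and CDS_45008_Unigene_70396 changed sign with library totals and with FPKM, centred or not.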
